A study of Mus musculus with 12 samples.

Results

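Transcripts of 42 genes that work in the G2 phase and in mitosis were followed in cultured mouse collecting duct cells with and without intact Nfat5, under isotonic and hypertonic conditions. The genes were chosen by name and function and not by their values, although earlier results of these data were known. Each of the 42 names was found once among the 52015 genes used. RNA-seq had been done on 12 cultures of mpkCCD cells, a mouse line derived from principal cells of the cortical collecting duct. Control cells (Scr) carried a scramble, non-targeting guide RNA, and the Nfat5-KO cells were the CRISPR/Cas9 clones N1 and N3. Cultures were kept for 5 days at 300 mosmol/kg or at 600 mosmol/kg, the latter reached with 100 mM NaCl and 100 mM urea. Each Scr group had 2 libraries and each Nfat5-KO group 4, so that the knockout groups mix 2 clones. Effects of the loss of Nfat5 and other differences between these clones and the Scr cells cannot be told apart. The deposited table gives 1 FPKM value (fragments normalised for transcript length and for the mapped fragments of the library) for each gene in each group. No value has a replicate error, no difference could be tested, and the reads behind each value are unknown. Words such as higher and lower therefore describe the group values alone.

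A cell that leaves G2 activates the kinase CDK1 bound to cyclin B, condenses its chromosomes, builds a spindle, attaches each chromosome through its kinetochores and, once the spindle checkpoint is satisfied, destroys securin and cyclin B through the anaphase-promoting complex before it divides. Most genes of this program are transcribed late in the cell cycle and are held down in resting cells, where the DREAM complex sits on their promoters at short elements called CHR. The summed level of such genes is often read as a sign of how many cells of a culture are cycling. In a bulk sample, fewer cells in G2 and mitosis and less RNA of these genes per cell cannot be told apart. NFAT5 is the transcription factor of the hypertonic response in the renal medulla.

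The targeted gene was examined first. Nfat5 had 5.61 FPKM in Scr_300, 7.93 in Scr_600, 3.47 in Nfat5-KO_300 and 6.88 in Nfat5-KO_600. The log2 ratio of knockout to control was -0.68 at 300 mosmol/kg and -0.20 at 600 mosmol/kg, so the transcript was still measured in the knockout groups, and an RNA level does not show what protein the edited clones make. All 6 epithelial markers listed were at 1 FPKM or more in every group, with summed levels of 1807 FPKM in Scr_300, 1303 in Scr_600, 1732 in Nfat5-KO_300 and 1098 in Nfat5-KO_600. All 6 were lower at 600 mosmol/kg in both genotypes, with median log2 ratios of -0.53 in Scr and -0.73 in Nfat5-KO. Of 11 principal cell markers, 4 to 5 reached 1 FPKM, with Tfcp2l1 the highest, and their summed level was 50.7 FPKM in Scr_300, 34.1 in Scr_600, 69.6 in Nfat5-KO_300 and 100.3 in Nfat5-KO_600. Between 0 and 1 of 8 markers of other nephron segments, 0 of 5 of intercalated cells and 1 of 8 of immune, endothelial and fibroblast cells reached that level, the last being Cd68 in every group. The part of these marker levels in the results on mitotic genes was not tested.

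The promoters are shown first, because letters known from G2/M promoters were common in these genes. A CHR holds the letters TTTGAA or TTCGAA, and CCAAT is the box bound by NF-Y, which often lies next to it. Promoter windows of RefSeq on GRCm38.p6, from 250 bases before to 50 bases after the start of the gene, were given for 36 of the 42 genes. The letters TTTGAA or TTCGAA, on either strand, occurred in 28 of the 36 (77.8%), against 19.4% of 27025 promoters of the same length and 13.6% of 8680 promoters of protein-coding genes that reached 0.5 FPKM somewhere. Within 100 bases before and 50 bases after the start they occurred in 27 of 36 (75.0%), against 8.68% of all promoters. TTTGAA alone was present in 72.2% and TTCGAA alone in 11.1%, against 18.1% and 1.57% of all promoters. CCAAT was present in 27 of 36 (75.0%), against 37.9%, and both kinds of letters together in 69.4%, against 7.70%. A pair of CCAAT letters that began 31 to 34 bases apart, a spacing chosen after other steps had been planned, was present in 25.0%, against 1.28%. Genes of DNA replication and S phase, taken for comparison, held TTTGAA or TTCGAA in 20.0% of 35 promoters and CCAAT in 68.6%. Such a match describes the sequence and does not show that a factor binds there.

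The 150 bases before the RefSeq start are given for 5 genes, each the highest expressed of its role among those with CHR letters inside this stretch, in the direction of transcription. Capitals mark the CHR letters, where TTCAAA is the first form read on the other strand, and the CCAAT letters, which read ATTGG on the other strand. The windows are chr10:69352913-69353062 on the minus strand for Cdk1, chr19:37376232-37376381 on the plus strand for Kif11, chr3:27153879-27154028 on the minus strand for Ect2, chr2:164769779-164769928 on the plus strand for Ube2c and chr11:99024190-99024339 on the minus strand for Top2a.
Cdk1: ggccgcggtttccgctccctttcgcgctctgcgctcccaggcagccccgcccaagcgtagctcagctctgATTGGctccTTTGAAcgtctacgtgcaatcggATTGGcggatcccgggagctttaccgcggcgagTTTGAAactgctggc
Kif11: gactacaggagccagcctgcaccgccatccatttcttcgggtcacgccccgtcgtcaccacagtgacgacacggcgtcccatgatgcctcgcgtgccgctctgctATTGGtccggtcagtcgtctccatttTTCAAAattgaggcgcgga
Ect2: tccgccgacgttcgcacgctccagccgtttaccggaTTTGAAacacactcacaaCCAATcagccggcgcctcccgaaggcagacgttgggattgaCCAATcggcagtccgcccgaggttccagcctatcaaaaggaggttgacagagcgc
Ube2c: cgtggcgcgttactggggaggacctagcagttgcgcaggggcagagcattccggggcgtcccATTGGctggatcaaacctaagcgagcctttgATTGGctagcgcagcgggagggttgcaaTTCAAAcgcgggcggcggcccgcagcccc
Top2a: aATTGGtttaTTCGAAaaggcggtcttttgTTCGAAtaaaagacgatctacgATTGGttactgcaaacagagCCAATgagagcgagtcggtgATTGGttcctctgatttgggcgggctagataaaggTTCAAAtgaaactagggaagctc
Positions are those of a motif's first base, with -1 the last base before the start. In Cdk1 the CHR letters lay at -71 and -15 and the CCAAT letters at -80 and -48. In Kif11 the CHR letters lay at -19 and the CCAAT letters at -45. In Ube2c the CHR letters lay at -29, downstream of CCAAT letters at -88 and -57, which begin 31 bases apart. In Ect2 CHR letters lay at -114, upstream of CCAAT letters at -96 and -55, and its window held the CHR letters once more, 40 bases after the start and outside the printed stretch. Top2a held the rarer CHR form at -140 and -120, the common form at -23 and 4 CCAAT letters in this stretch. In many other genes of the list, among them Plk1, Aurka, Cenpf and Spc25, the CHR letters lay just after the RefSeq start and are not printed. The promoters of Ccnb1, Melk, Birc5, Mad2l1, Cenpe, Nuf2, Nusap1 and Pttg1 held neither TTTGAA nor TTCGAA in the window.

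All 42 genes were well expressed in every group. Their levels ran from 7.71 FPKM (Cdc25c) to 112.6 FPKM (Ube2c) in Scr_300, with a median of 26.7 FPKM. The median was 24.3 FPKM in Scr_600, 25.1 in Nfat5-KO_300 and 24.2 in Nfat5-KO_600. These medians lay at percentiles 83.6 to 85.0 of the genes with at least 0.5 FPKM. Together the 42 genes made up 0.573% of all FPKM in Scr_300, 0.529% in Scr_600, 0.543% in Nfat5-KO_300 and 0.553% in Nfat5-KO_600. The order of the genes by level was nearly the same in the 4 groups, with Pearson's r of log2 FPKM between 0.950 and 0.985 over the 42 genes, which is a description across genes and not across replicates. For a given gene, the highest group was 1.09 times (Kif20a) to 1.75 times (Cenpe) the lowest, with a median of 1.33 times. Scr_300 was the highest group for 26 genes and Nfat5-KO_600 the lowest for 22. The summed FPKM of all genes was also highest in Scr_300 (253756) and lowest in Nfat5-KO_600 (212247). These counts were made on the deposited scale and were not made over all genes.

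**Figure D1:**
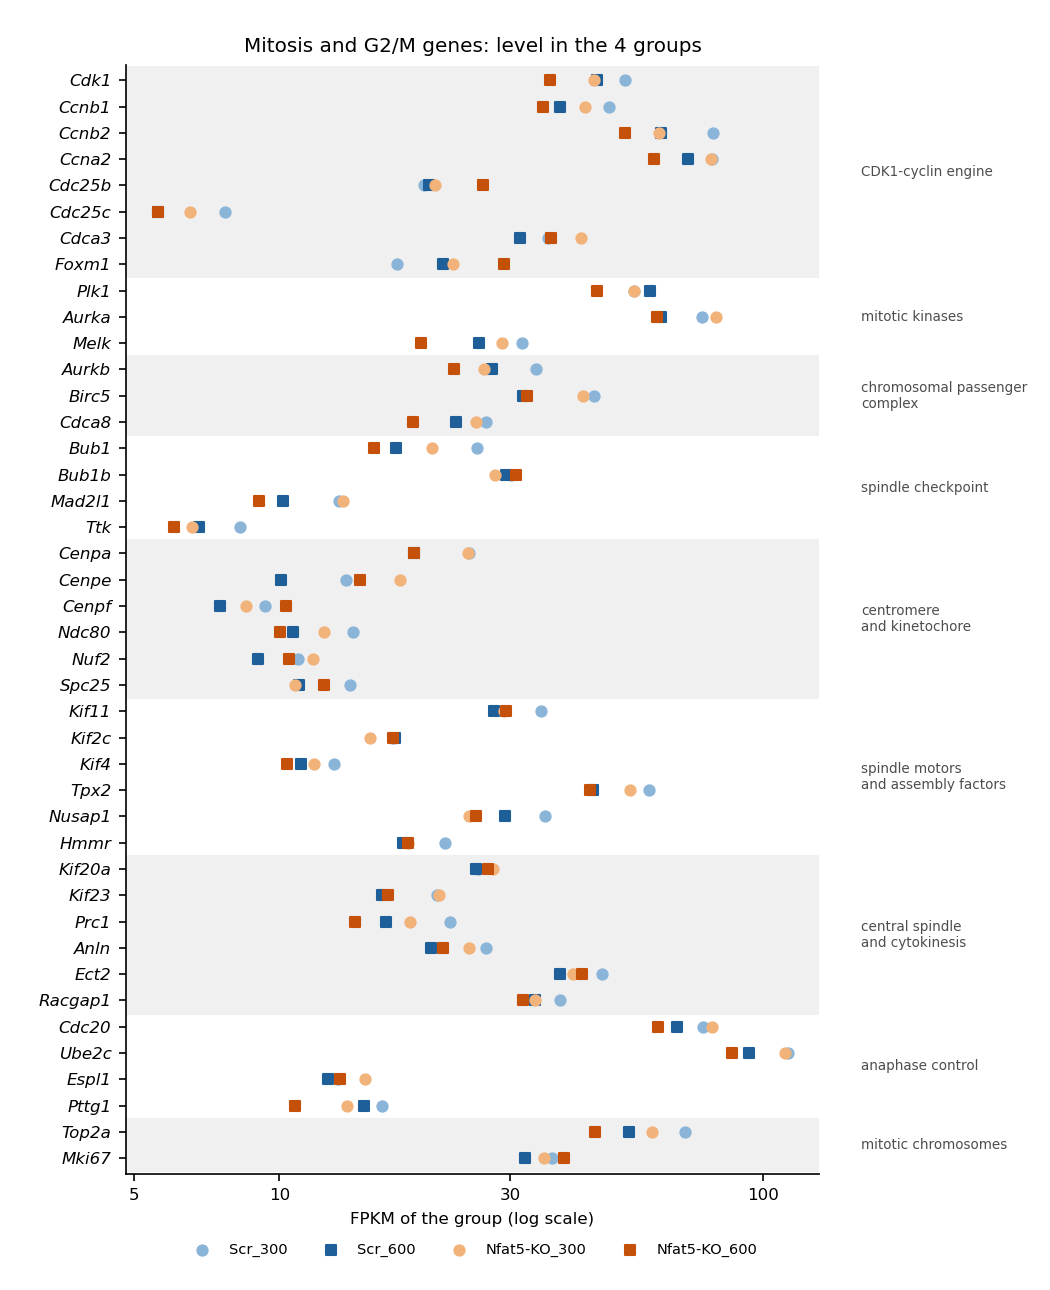
FPKM of each of the 42 genes (log axis) in Scr_300, Scr_600, Nfat5-KO_300 and Nfat5-KO_600, ordered by role, with 1 point for the value of each group and no error bars because none could be computed. For most genes the 4 points lie close together, and on the deposited scale Scr_300 is the highest in 26 of the 42.

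As deposited, most of the 42 genes had slightly lower values at 600 mosmol/kg in both genotypes. In Scr_600 against Scr_300, 38 of 42 were lower, while 54.6% of 12929 genes compared were lower and 45.4% higher. The median log2 ratio of FPKM + 0.1 was -0.28, which is 17.9% less, and that of all genes was -0.04. In Nfat5-KO_600 against Nfat5-KO_300, 32 of 42 were lower, beside 52.9% of 12982 genes (47.1% were higher), and the median was -0.23 against -0.04 for all genes. With every group rescaled to the same summed FPKM, 34 of 42 remained lower in the Scr response but only 20 of 42 in the knockout, beside 40.2% and 34.0% of all genes, whose median moved to 0.09 and 0.20. Relative to the median of all genes, the median of the 42 was then -0.24 for Scr and -0.19 for Nfat5-KO. On the deposited scale none of the 42 reached a 1.5-fold difference in any of the 4 comparisons. Among all genes, 10.4% passed 1.5-fold upwards and 9.01% downwards in the Scr response, and 14.1% and 13.8% did so in the Nfat5-KO response. At 2-fold these shares were 4.81% and 2.86% for Scr, and 6.25% and 4.11% for Nfat5-KO.

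The knockout went with smaller shifts. In Nfat5-KO_300 against Scr_300, 30 of 42 were lower, beside 50.2% of 12704 genes (49.8% were higher), with a median log2 ratio of -0.13 against 0.00 for all genes. In Nfat5-KO_600 against Scr_600, 24 of 42 were lower, beside 52.2% of 13063 genes (47.8% were higher), and the median of the 42 and of all genes was -0.02 each, a sign that turned under other scalings. At 1.5-fold, 5.27% of all genes were higher and 6.21% lower at 300 mosmol/kg, and 9.84% and 9.44% at 600 mosmol/kg. At 2-fold the shares were 1.73% and 2.44% at 300 mosmol/kg, and 3.76% and 3.68% at 600 mosmol/kg. The log2 ratios of the 42 genes were also less spread than those of all genes, with an SD across genes of 0.17 to 0.24 in the 4 comparisons against 0.48 to 0.66.

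**Figure D2:**
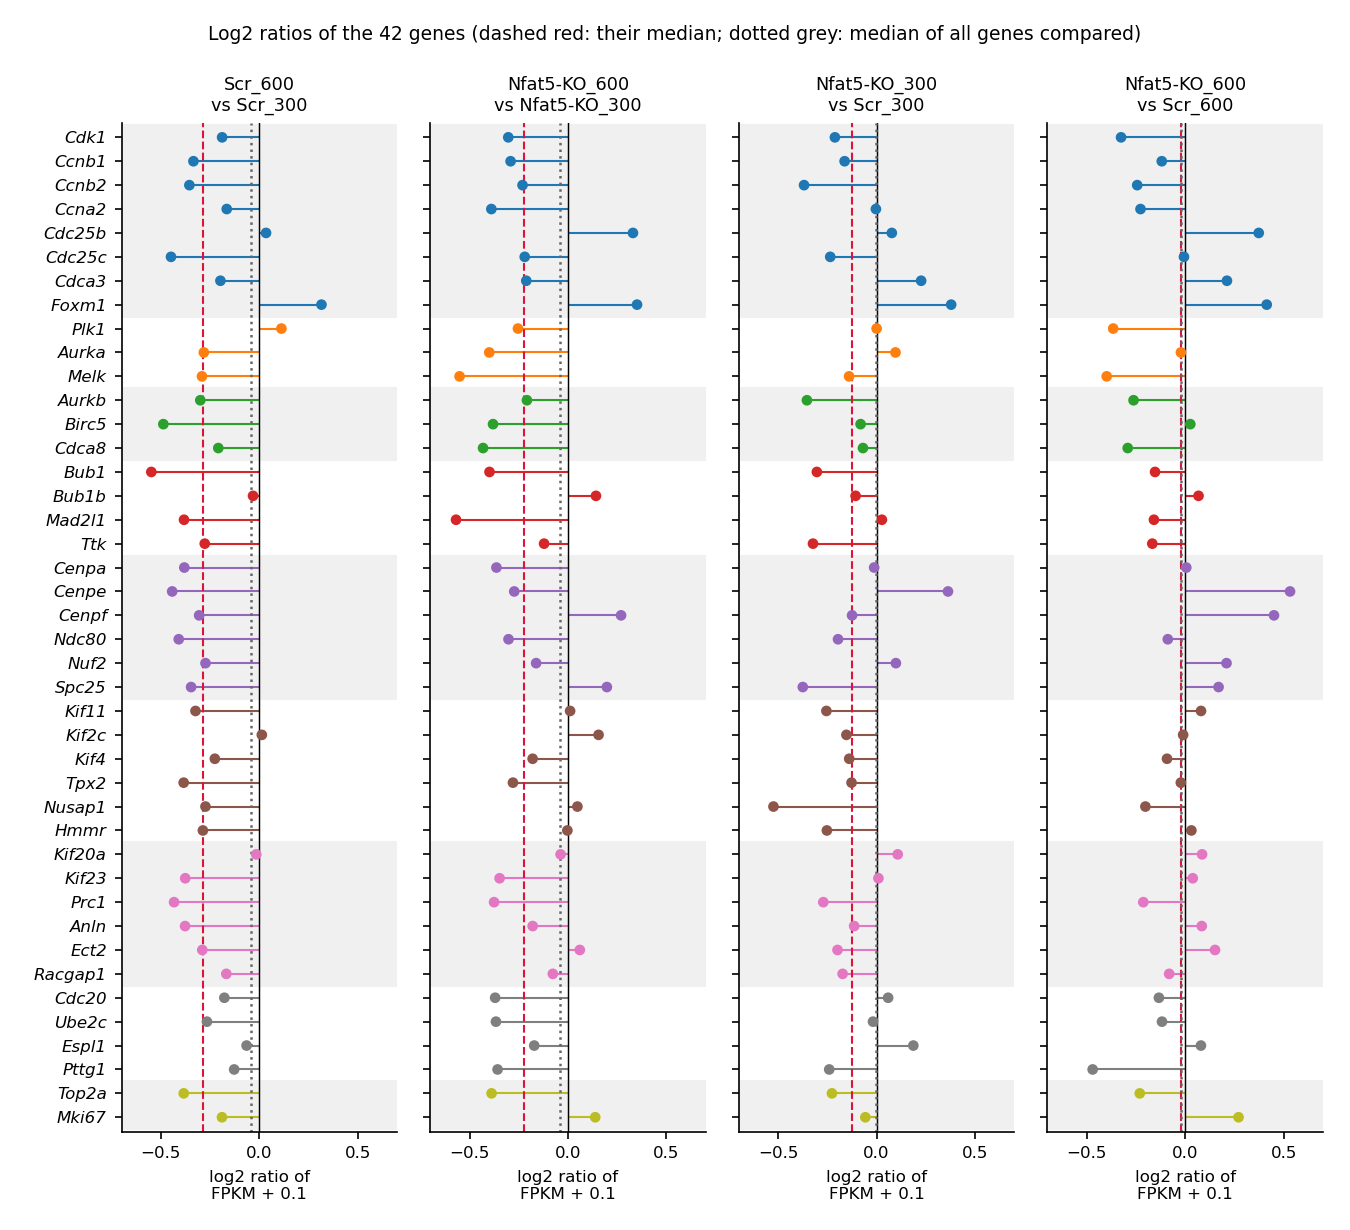
Log2 ratios of FPKM + 0.1 of the 42 genes, ordered and coloured by role, in the 4 comparisons; the dashed red line is their median and the dotted grey line that of all genes compared. On the deposited scale the red line lies left of the grey one in both hypertonic comparisons (-0.28 and -0.23) and close to it in Nfat5-KO_600 against Scr_600 (-0.02).

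The kinase that drives entry into mitosis and its cyclins had, on the deposited scale, their highest values in Scr_300 and their lowest in Nfat5-KO_600. Cdk1, the mitotic kinase itself, had 51.8 FPKM in Scr_300, 45.4 in Scr_600, 44.7 in Nfat5-KO_300 and 36.2 in Nfat5-KO_600. Ccnb1, which encodes cyclin B1, had 48.1, 38.1, 43.0 and 35.1 FPKM in the same order. Ccnb2, the gene of cyclin B2, had 78.8, 61.6, 61.0 and 52.0 FPKM. All 3 were lower at 600 than at 300 mosmol/kg in both genotypes and lower in the knockout at both osmolalities, except that rescaling to the same sum turned the sign of Ccnb2 in the Nfat5-KO response and of Ccnb1 between the hypertonic groups. For Cdk1 the log2 ratio was -0.19 in the Scr response, -0.30 in the Nfat5-KO response, -0.21 between the isotonic groups and -0.33 between the hypertonic groups. The ratio of Ccnb1 to Cdk1, which no scaling of a group can alter, was 0.929, 0.840, 0.961 and 0.969 in the 4 groups. Ccna2, the gene of cyclin A2, differed in that both isotonic groups were equal to within a log2 ratio of 0.00, with 78.4 FPKM in Scr_300 and 78.2 in Nfat5-KO_300, and 69.9 and 59.7 in Scr_600 and Nfat5-KO_600.

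The phosphatases that switch CDK1 on moved apart. Cdc25b had 19.9 FPKM in Scr_300, 20.4 in Scr_600, 21.0 in Nfat5-KO_300 and 26.4 in Nfat5-KO_600, so that the hypertonic knockout group stood above the other groups. Between 300 and 600 mosmol/kg its log2 ratio was 0.03 for Scr but 0.33 for Nfat5-KO. Cdc25c, the lowest of the 42 in each of the 4 groups, had 7.71, 5.62, 6.53 and 5.60 FPKM. The ratio of Cdc25b to Cdc25c was 2.58 in Scr_300, 3.63 in Scr_600, 3.22 in Nfat5-KO_300 and 4.72 in Nfat5-KO_600. Cdca3, an adaptor that promotes mitotic entry, had 36.0, 31.4, 42.2 and 36.4 FPKM and was higher in the knockout at both osmolalities, by log2 ratios of 0.23 and 0.21. Foxm1, on chromosome 6 from 128362967 to 128376146 of GRCm38, encodes the forkhead factor that activates many G2/M genes. It had 17.5 FPKM in Scr_300, 21.8 in Scr_600, 22.8 in Nfat5-KO_300 and 29.1 in Nfat5-KO_600, an order opposite to that of Cdk1. Foxm1 was the highest of the 42 in log2 ratio in the Scr response (0.32), in the Nfat5-KO response (0.35) and between the isotonic groups (0.38), and it was at 0.41 between the hypertonic groups.

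Of the mitotic kinases other than CDK1, Plk1 and Aurka stood apart from each other. Plk1, on chromosome 7 from 122159439 to 122169873, encodes polo-like kinase 1, which acts from mitotic entry to cytokinesis. It had 54.1 FPKM in Scr_300, 58.4 in Scr_600, 54.1 in Nfat5-KO_300 and 45.3 in Nfat5-KO_600. It was the one gene of the 42 that was higher at 600 mosmol/kg in Scr cells (0.11) and lower in Nfat5-KO cells (-0.25), and the isotonic groups were alike at a log2 ratio of 0.00. The ratio of Plk1 to Foxm1 was 3.08, 2.68, 2.37 and 1.56 in the 4 groups. Aurka, whose kinase matures the centrosomes, had 74.8, 61.5, 79.9 and 60.6 FPKM, lower at 600 mosmol/kg in both genotypes by log2 ratios of -0.28 and -0.40. Melk, a kinase gene expressed with the cell cycle, had 31.8, 25.9, 28.8 and 19.6 FPKM, and its log2 ratio of -0.55 in the Nfat5-KO response was the second lowest of the 42.

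The chromosomal passenger complex corrects faulty attachments of chromosomes to the spindle. All 3 of its genes were lower at 600 mosmol/kg in both genotypes, though Aurkb was not in the Nfat5-KO response after rescaling to the same sum. Aurkb, its kinase, had 34.0 FPKM in Scr_300, 27.6 in Scr_600, 26.6 in Nfat5-KO_300 and 23.0 in Nfat5-KO_600. Birc5, the gene of survivin, had 44.9, 32.0, 42.4 and 32.6 FPKM, with log2 ratios to hypertonicity of -0.49 in Scr and -0.38 in Nfat5-KO cells and of -0.08 and 0.03 to the knockout. Cdca8, the gene of borealin, had 26.8, 23.1, 25.5 and 18.9 FPKM. Survivin's gene thus followed osmolality, with the groups of each osmolality close together, while that of Aurkb was lower in the knockout too, by -0.35 at 300 and -0.26 at 600 mosmol/kg.

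The spindle checkpoint holds anaphase back until all chromosomes are attached, and its genes did not move as 1 group. Bub1, a checkpoint kinase at the kinetochore, had 25.6 FPKM in Scr_300, 17.5 in Scr_600, 20.7 in Nfat5-KO_300 and 15.7 in Nfat5-KO_600. Its log2 ratio of -0.55 was the lowest of the 42 in the Scr response, and it was -0.40 in Nfat5-KO cells. Bub1b, whose protein BUBR1 binds and inhibits the anaphase-promoting complex, had 30.1, 29.4, 27.9 and 30.9 FPKM, a range of 1.10 times between its lowest and highest group. The ratio of Bub1 to Bub1b was 0.850 and 0.593 in Scr_300 and Scr_600 and 0.741 and 0.509 in Nfat5-KO_300 and Nfat5-KO_600, so it was lower at 600 mosmol/kg in both genotypes. Mad2l1, the gene of the inhibitor MAD2, had 13.3, 10.2, 13.5 and 9.09 FPKM, and its log2 ratio of -0.57 was the lowest of the Nfat5-KO response. Ttk, the gene of the checkpoint kinase MPS1, had 8.28, 6.82, 6.60 and 6.06 FPKM, the lowest level of the 4 checkpoint genes.

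Genes of the centromere and kinetochore gave the highest log2 ratios of the 42 between the hypertonic groups, those of Cenpe and Cenpf. Cenpe, on chromosome 3 from 135212537 to 135273611, encodes the kinesin that moves chromosomes to the spindle equator. It had 13.8 FPKM in Scr_300, 10.1 in Scr_600, 17.7 in Nfat5-KO_300 and 14.7 in Nfat5-KO_600. It was higher in the knockout at both osmolalities, by log2 ratios of 0.36 and 0.53, and lower at 600 mosmol/kg in both genotypes, by -0.44 and -0.27. Cenpf, on chromosome 1 from 189640606 to 189688086, encodes a large protein of the outer kinetochore and had 9.32, 7.52, 8.54 and 10.3 FPKM. Its responses to hypertonicity were -0.31 (Scr) and 0.27 (Nfat5-KO), a difference of 0.58 that was the largest of the 42. Spc25, on chromosome 2 from 69193895 to 69206194, encodes a subunit of the NDC80 complex and had 14.0, 11.0, 10.8 and 12.4 FPKM. For Spc25 the ratios were -0.35 and 0.20, a difference of 0.54. The other NDC80 genes listed did not share this, since Ndc80 had 14.2, 10.7, 12.4 and 10.0 FPKM and Nuf2 had 10.9, 9.04, 11.7 and 10.5 FPKM, both lower at 600 mosmol/kg in both genotypes, apart from Nuf2 in the knockout after rescaling to the same sum. Cenpa, the centromeric histone H3 variant, had 24.7 and 24.5 FPKM in the isotonic groups and 19.0 in each hypertonic group, so it differed by osmolality and hardly by genotype.

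Spindle motors and assembly factors were all lower in Nfat5-KO_300 than in Scr_300. Kif11, the motor that pushes the spindle poles apart, had 34.9 FPKM in Scr_300, 27.8 in Scr_600, 29.2 in Nfat5-KO_300 and 29.4 in Nfat5-KO_600. Nusap1, on chromosome 2 from 119618298 to 119651244, encodes a protein that bundles spindle microtubules and had 35.5, 29.3, 24.7 and 25.5 FPKM. Its log2 ratio of -0.52 was the lowest of the 42 between the isotonic groups, and at 600 mosmol/kg it was -0.20. Nusap1 overlaps Oip5 on the opposite strand over 172 bases, and Oip5, with 16.2, 15.9, 9.70 and 11.7 FPKM, was also lower in both knockout groups. Whether the counting used strand is not stated in the sources used here, so reads in the shared stretch cannot be told apart. Hmmr, the gene of a spindle-associated hyaluronan receptor, had 22.0, 18.03, 18.5 and 18.4 FPKM, with Scr_300 above 3 groups that were alike. Tpx2, the activator of Aurora A on the spindle, had 58.1, 44.5, 53.2 and 43.8 FPKM, lower at 600 mosmol/kg in both genotypes. The chromokinesin gene Kif4 had 13.0, 11.1, 11.8 and 10.4 FPKM. Its responses to hypertonicity were -0.23 (Scr) and -0.18 (Nfat5-KO), beside -0.14 between the isotonic groups. Rescaling to the same sum turned the sign of Kif4 in the Nfat5-KO response and between the hypertonic groups. Kif2c, a kinesin that takes microtubules apart, had 17.2, 17.3, 15.4 and 17.2 FPKM.

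The genes of the central spindle and of cytokinesis were all lower in Scr_600 than in Scr_300, by log2 ratios from -0.43 for Prc1 to -0.02 for Kif20a, whose sign turned after rescaling to the same sum. Prc1, which crosslinks the microtubules of the central spindle, had 22.5 FPKM in Scr_300, 16.7 in Scr_600, 18.7 in Nfat5-KO_300 and 14.4 in Nfat5-KO_600. Kif23 and Racgap1, which together form centralspindlin, differed in pattern. Kif23 had 21.2, 16.3, 21.4 and 16.8 FPKM, with the groups of each osmolality close together on the deposited scale. Racgap1 had 38.0, 33.9, 33.7 and 32.0 FPKM. Ect2, the exchange factor that activates RhoA at the cleavage site, had 46.5, 38.0, 40.5 and 42.3 FPKM, lower by -0.29 with hypertonicity in Scr cells and at 0.06 in Nfat5-KO cells. Anln, the gene of the scaffold anillin, had 26.7, 20.6, 24.7 and 21.8 FPKM. Kif20a, a kinesin of the cleavage furrow, had 25.7, 25.5, 27.7 and 27.0 FPKM, the narrowest span of the 42. Kif20a overlaps Cdc23 on the opposite strand over 2327 bases, and Cdc23 had 5.86, 4.72, 5.41 and 3.81 FPKM.

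In the Nfat5-KO response all 4 genes that carry out anaphase were lower, by log2 ratios from -0.37 to -0.17, though Espl1 was not after rescaling to the same sum. Ube2c, the ubiquitin-conjugating enzyme of the anaphase-promoting complex and the highest of the 42 in every group, had 112.6 FPKM in Scr_300, 93.6 in Scr_600, 111.2 in Nfat5-KO_300 and 86.2 in Nfat5-KO_600. Cdc20, which activates that complex, had 75.3, 66.5, 78.4 and 60.6 FPKM. Both thus had their 2 isotonic groups close together and above both hypertonic groups. Pttg1 encodes securin and Espl1 encodes separase, the protease that securin holds inactive until anaphase. Pttg1 had 16.3, 14.9, 13.8 and 10.8 FPKM, and its log2 ratio of -0.47 was the lowest of the 42 between the hypertonic groups. Espl1 had 13.2, 12.6, 15.0 and 13.3 FPKM and was a little higher in the knockout, by 0.19 and 0.08. The ratio of Espl1 to Pttg1 was therefore 0.808 and 0.844 in Scr_300 and Scr_600 and 1.09 and 1.24 in Nfat5-KO_300 and Nfat5-KO_600.

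The 2 genes of mitotic chromosomes, both used as markers of proliferation, did not move alike. Top2a, the topoisomerase that untangles sister chromatids, had 69.1 FPKM in Scr_300, 52.9 in Scr_600, 59.0 in Nfat5-KO_300 and 45.1 in Nfat5-KO_600. It was lower with hypertonicity by -0.38 in Scr and -0.39 in Nfat5-KO cells, and lower in the knockout by -0.23 at both osmolalities. Mki67, the gene of the Ki-67 antigen that coats mitotic chromosomes, had 36.7, 32.2, 35.3 and 38.9 FPKM. Its responses to hypertonicity were -0.19 (Scr) and 0.14 (Nfat5-KO).

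Set side by side, the hypertonic responses of both genotypes had the same direction for most of the 42 genes. They share no library. Of the 42, 31 (73.8%) were lower at 600 mosmol/kg in both genotypes, against 41.6% of 12156 genes compared in all 4 groups. Foxm1, Cdc25b and Kif2c were higher in both (7.14%, against 31.6%), although the ratio of Kif2c in Scr cells was 0.01. A further 7 (16.7%, against 14.0%) were lower in Scr cells and higher in Nfat5-KO cells, namely Bub1b, Cenpf, Spc25, Kif11, Nusap1, Ect2 and Mki67. Plk1 went the other way (2.38%, against 12.8%). Rescaled to the same sum, 18 (42.9%) were lower in both genotypes, against 25.1% of all genes. Then 2 genes, Plk1 and Pttg1, were higher in Scr and lower in the knockout (4.76%, against 10.1%). Pearson's r between both responses was 0.51 (Spearman's rho 0.41) over the 42 genes and 0.59 (0.60) over all genes, as a description across genes that share their libraries.

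**Figure D3:**
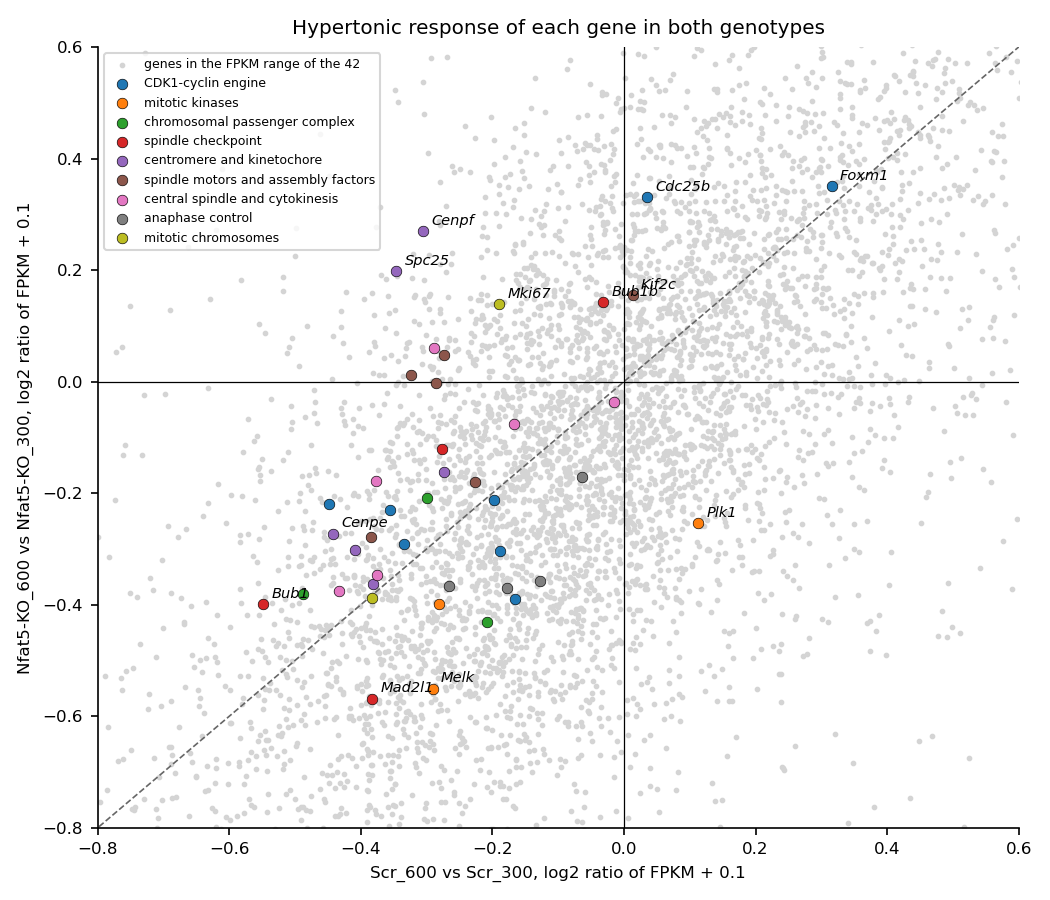
Log2 ratio of Scr_600 to Scr_300 (x axis) and of Nfat5-KO_600 to Nfat5-KO_300 (y axis) for the 42 genes, coloured by role, over grey points for genes in the same FPKM range (points beyond the axes are not drawn); the dashed line marks equal responses. On this scale most of the 42 lie in the lower left, where 31 were lower in both genotypes, and Plk1 is the one gene in the lower right.

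The difference of the responses, Nfat5-KO minus Scr, was above 0 for 28 of 42 genes, beside 47.3% of 12497 genes (52.7% were below 0), with a median of 0.09 against -0.02 for all genes. With median-of-ratios factors it was above 0 for 24 of 42, with a median of 0.045 against -0.07 for all genes, and after rescaling to the same sum for 33 of 42, with 0.20 against 0.09. Of all genes, 57.7% were below 0 with median-of-ratios factors and 40.3% after rescaling to the same sum. The difference of the responses could not be tested. By role, all 6 genes of the centromere and kinetochore and all 6 spindle motors and assembly factors were above 0, with medians of 0.14 and 0.21, though 5 of 6 kinetochore genes were above 0 after median-of-ratios scaling. Of the central spindle genes 5 of 6, of the checkpoint genes 3 of 4, of the chromosomal passenger genes 2 of 3 and of the CDK1 group 5 of 8 were above 0. With median-of-ratios factors the CDK1 group had 3 of 8 above 0 (median -0.0067) and the central spindle genes 4 of 6. All 3 mitotic kinases and all 4 anaphase genes were below 0, with medians of -0.26 and -0.15, and after rescaling to the same sum 2 of the 4 anaphase genes were above 0. The extremes were Cenpf (0.58), Spc25 (0.54) and Ect2 (0.35) on one side and Plk1 (-0.37), Melk (-0.26) and Pttg1 (-0.23) on the other. On the deposited scale no gene of the 42 reached 1.5-fold, beside 7.69% of all genes above and 7.85% below (2.7% and 2.42% at 2-fold). Cenpf (1.49 times) and Spc25 (1.46 times) lay just below that limit, and the count was not made under other scalings. The difference of responses contains all 4 group values and adds nothing to the ratios given for each gene.

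The knockout differences at both osmolalities share no library either, although both set the same clones against the Scr cells. At both, 20 of the 42 genes (47.6%, against 33.3% of 12156 genes) were lower in Nfat5-KO cells and 8 (19.0%, against 30.3%) were higher, the latter being Cdc25b, Cdca3, Foxm1, Cenpe, Nuf2, Kif20a, Kif23 and Espl1. Another 10 (23.8%, against 16.8%) were lower at 300 and higher at 600 mosmol/kg. The reverse held for 4 (9.52%, against 19.6%), namely Aurka, Mad2l1, Cdc20 and Plk1, whose isotonic ratio was 0.00. Rescaled to the same sum, 11 (26.2%, against 25.0%) were lower and 10 (23.8%, against 38.2%) higher at both osmolalities. Pearson's r between the knockout differences at 300 and 600 mosmol/kg was 0.53 (Spearman's rho 0.45) over the 42 genes and 0.40 (0.39) over all genes. The values of the hypertonic and knockout comparisons should not be read as separate evidence where they share a group. Scr_600, for example, enters both the Scr response and the knockout difference at 600 mosmol/kg.

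The 42 genes were also set beside genes of the same abundance. Of 5983 genes whose mean FPKM lay between those of the lowest and highest of the 42, the median log2 ratio was -0.05 in the Scr response, -0.11 in the Nfat5-KO response, 0.01 between the isotonic groups and -0.06 between the hypertonic groups. The medians of the 42 were -0.28, -0.23, -0.13 and -0.02. Of the genes of the same abundance 57.0% were lower in the Scr response and 60.3% in the Nfat5-KO response, against 38 and 32 of the 42. Splitting the 36 genes with a promoter window by their letters gave a median of -0.28 for the 28 with TTTGAA or TTCGAA and -0.31 for the 8 without in the Scr response. In the Nfat5-KO response these medians were -0.20 and -0.32, and they were -0.13 and -0.11 between the isotonic groups and -0.02 and -0.14 between the hypertonic groups. Genes without the letters were thus as low or lower at 600 mosmol/kg, among only 8 genes.

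**Figure D4:**
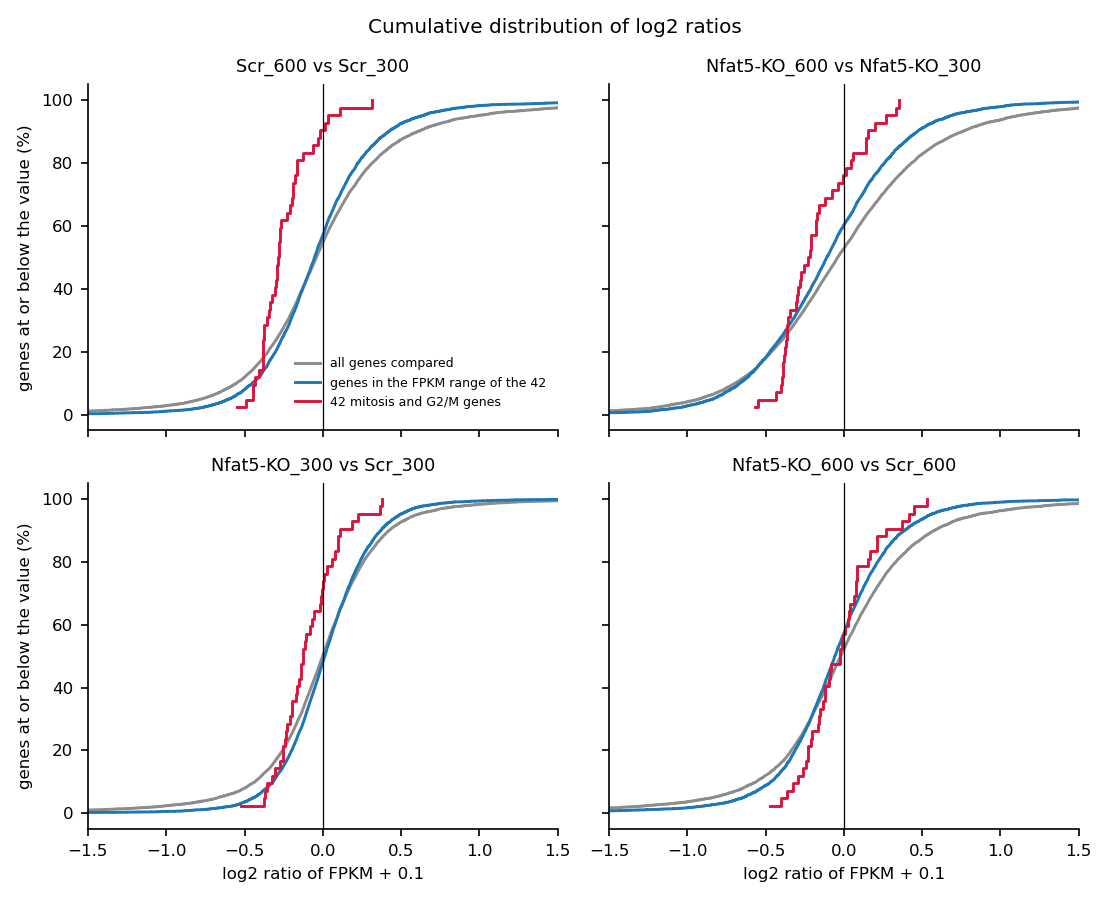
Cumulative share of genes (y axis, %) at or below a log2 ratio (x axis) for the 42 genes (red), for genes in their FPKM range (blue) and for all genes compared (grey) in the 4 comparisons; values beyond 1.5 are not drawn. In both hypertonic comparisons the red curve climbs left of the others through its middle and then reaches 100% early, because no member is far above 0.

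Other genes of the cell cycle were taken from 9 lists by function, of which 147 of 148 genes were found and 145 compared. Their medians were -0.14 in the Scr response, -0.16 in the Nfat5-KO response, -0.07 between the isotonic groups and -0.02 between the hypertonic groups. In the Scr response 100 of 145 were lower and 8 at least 1.5-fold lower, and in the Nfat5-KO response 91 were lower, 6 at least 1.5-fold lower and 6 at least 1.5-fold higher. Between the isotonic groups 89 were lower and 4 at least 1.5-fold lower, and between the hypertonic groups 78 were lower, with 1 at least 1.5-fold lower and 3 at least 1.5-fold higher. Of all genes, 54.6% were lower in the Scr response, 52.9% in the Nfat5-KO response, 50.2% between the isotonic and 52.2% between the hypertonic groups. At 1.5-fold, 9.01% of all genes were lower in the Scr response, and 13.8% lower and 14.1% higher in the Nfat5-KO response. Between the isotonic groups 6.21% were lower at 1.5-fold, and between the hypertonic groups 9.44% lower and 9.84% higher. By list, further centromere and kinetochore genes were at -0.14 in Scr and -0.21 in Nfat5-KO cells (25 and 26 of 33 lower), and further spindle, kinesin and cytokinesis genes at -0.18 and -0.24 (24 and 19 of 29 lower). Condensin and cohesin genes, which shape and hold the chromosomes, were at -0.19 and -0.01 (17 and 10 of 20 lower). Regulators of G2/M entry were at -0.14 and -0.17 (10 and 10 of 14 lower). Subunits and regulators of the anaphase-promoting complex were at 0.01 and -0.17 (8 and 11 of 17 lower). Rescaled to the same sum, the medians of these 5 lists in the Nfat5-KO response were all above 0, from 0.0031 to 0.23. The median of all genes was then 0.20, and of the 5 lists only condensin and cohesin lay above it.

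Several named genes of these lists moved further than any of the 42. Ncapg, a condensin subunit, had 24.3 FPKM in Scr_300 and 15.5 in Scr_600, and Sgo1, the protector of centromeric cohesion, had 15.2 and 9.34 FPKM. Pbk, a mitotic kinase gene, had 71.8 and 45.5 FPKM in those groups. Cenpm, a subunit of the inner kinetochore, had 17.4 FPKM in Scr_600 and 10.1 in Nfat5-KO_600, a log2 ratio of -0.78. Ckap2, which stabilises spindle microtubules, had 17.5 and 27.6 FPKM there, a ratio of 0.66. Mastl, the kinase that shields CDK1 substrates from dephosphorylation, had 6.13 FPKM in Nfat5-KO_300 and 10.2 in Nfat5-KO_600, a ratio of 0.72.

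Single regulators of G1 and of the late program had larger ratios than any of the 42, although in the Scr response the medians of their lists lay nearer to 0 than that of the 42. Ccnd1, the gene of cyclin D1, had 99.3 FPKM in Scr_300, 52.1 in Scr_600, 123.6 in Nfat5-KO_300 and 59.4 in Nfat5-KO_600. Its responses were -0.93 (Scr) and -1.06 (Nfat5-KO), and the G1 cyclins and kinases as a list were at -0.13 and -0.33 (4 and 7 of 7 lower). CDK inhibitors were at 0.06 and 0.33, with 3 of 6 and 6 of 6 higher. Among them Cdkn2b had 8.97 FPKM in Scr_300, 13.0 in Scr_600, 5.69 in Nfat5-KO_300 and 10.1 in Nfat5-KO_600. Factors of DREAM and of MuvB with MYBL2 were at 0.01 and 0.24 (6 and 4 of 13 lower). Within that list Mybl2, which activates the late genes, had 66.1 FPKM in Nfat5-KO_300 and 35.3 in Nfat5-KO_600 (-0.90), while Rbl2, a pocket protein of DREAM, had 2.27 and 4.03 FPKM (0.80) and Lin37, another DREAM subunit, 5.92 and 10.7 FPKM (0.85). In Scr_300 and Scr_600 Mybl2 had 51.8 and 40.6 FPKM, Rbl2 2.70 and 2.95 FPKM, and Lin37 6.40 and 8.97 FPKM. The E2F list was at 0.00 and -0.21 (3 and 4 of 6 lower), the latter 0.028 after rescaling to the same sum (0.20 for all genes). The 44 genes of DNA replication and S phase were lower in 39 cases in Scr and 37 in Nfat5-KO cells, with medians of -0.20 and -0.27. Rescaled to the same sum, 29 and 24 of 44 were lower, with medians of -0.08 and -0.03. For all genes these medians were then 0.09 and 0.20, with 40.2% and 34.0% lower. The share of the S phase genes in all FPKM was 0.633% in Scr_300, 0.581% in Scr_600, 0.604% in Nfat5-KO_300 and 0.591% in Nfat5-KO_600.

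**Figure D5:**
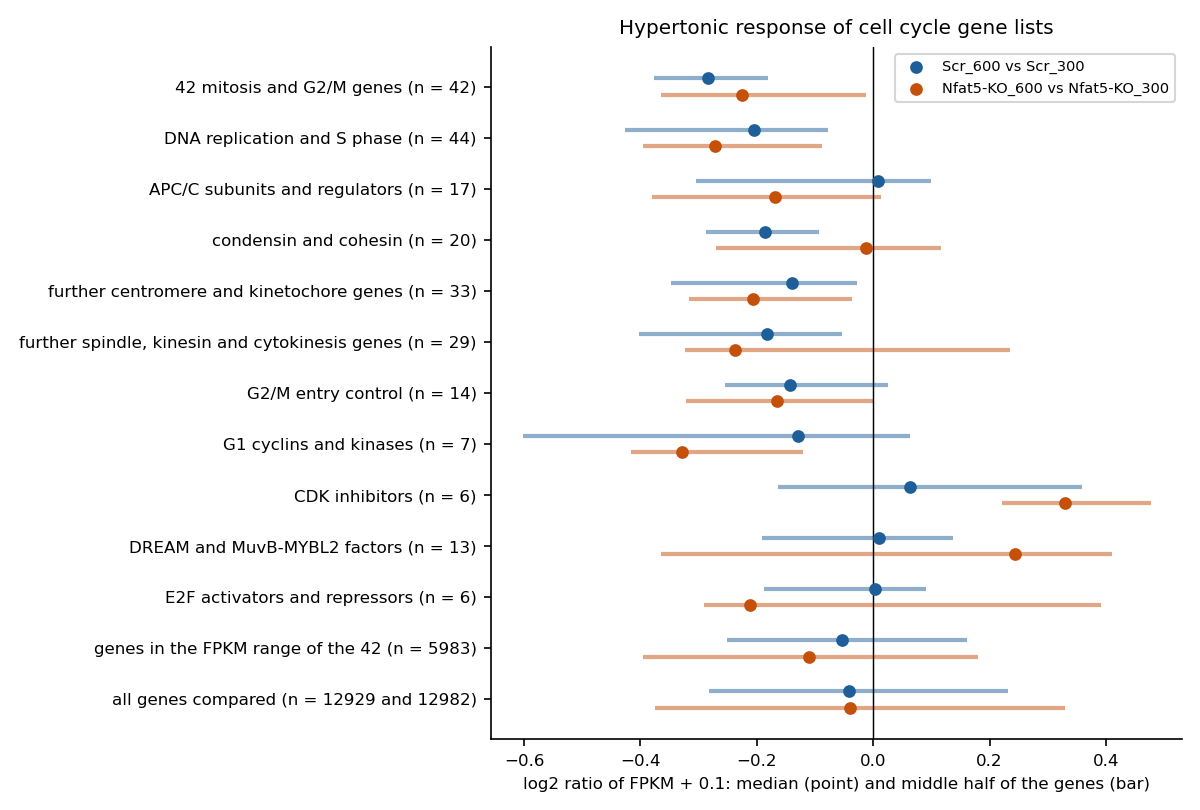
Median (point) and middle 50% of the genes (bar) of the log2 ratio to hypertonicity in Scr cells (blue) and Nfat5-KO cells (orange) for the 42 genes, 10 other cell cycle lists, genes in the FPKM range of the 42 and all genes compared. The 42 (-0.28 and -0.23) and the S phase genes (-0.20 and -0.27) have both points left of 0, and the CDK inhibitors have both points right of it (0.06 and 0.33).

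Some of the log2 ratios moved with properties of the transcripts. Over the 42, Spearman's rho between the Scr response and the GC content of the transcript was 0.57, against 0.32 over 10645 other protein-coding genes, and it was 0.42 between the isotonic groups, 0.03 in the Nfat5-KO response and -0.06 between the hypertonic groups. The difference of responses and GC content had a rho of -0.44, against -0.15 over other coding genes. With transcript length, the ratio of Nfat5-KO_600 to Scr_600 had a rho of 0.37, against 0.20, and rho was 0.28 in the Nfat5-KO response, 0.16 between the isotonic groups and -0.03 in the Scr response. Of the 14 genes with the longest transcripts 9 had a higher value in Nfat5-KO_600 (median 0.08), and of the 14 with the shortest 4 were higher (median -0.10). Their part in the results was not tested. Pseudogenes can take reads from 3 of the 42 genes: Ccnb1-ps had 1.17 to 1.52 FPKM, Ccnb2-ps at most 0.158 FPKM, and Kif4-ps was listed at 0. Opposite-strand neighbours overlap further genes of the list, among them Ccna2 with Exosc9 (863 bases), Kif4 with Pdzd11 (832 bases), Cdc20 with Elovl1 (53 bases), Ube2c with Tnnc2 (1662 bases) and Prc1 with Rccd1 (21810 bases). All overlap lengths given here, also those of Nusap1 and Kif20a, are taken from whole gene spans with introns. The exonic bases shared were not counted. Exosc9 had 12.8 FPKM in Scr_300 and 7.81 in Nfat5-KO_600, and Pdzd11 had 13.8 and 8.33 FPKM.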

How the data were processed

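RNA-seq of 12 mpkCCD cultures (poly-T selected RNA, NEBNext Ultra libraries) was processed by the authors with HISAT2 on mm10 (GRCm38) and HTSeq; versions, the annotation release and the use of strand are not given in the sources used here. The deposited FPKM values hold 1 value per gene and group, normalized by the authors for transcript length and mapped fragments. How libraries were combined is not stated in the table, and no library depth, SD or n can be had from it, so only the number of libraries describes the precision. Of 54839 rows, 2436 without values, 311 exact duplicates and 37 symbols with several rows were left out.

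Log2 ratios of FPKM + 0.1, which understate changes of low genes, were taken over genes with at least 0.5 FPKM in either group, with 2-fold and 1.5-fold as limits of size. No test was possible with 1 value per group. The 2-fold calls were tested on simulated data with changes larger than any seen in the 42, so this does not cover small differences. The genes and lists were chosen with earlier results of these data known. Named were all 42 genes by role, Nfat5, and from other lists at most the 3 highest and 3 lowest of those at least 1.5-fold different; neighbours that overlap a gene were named after their values were seen. Promoters came from RefSeq (GRCm38.p6; 36 of 42 matched by symbol, not Cdc25c, Kif20a, Foxm1, Aurkb, Tpx2 and Ccna2), and positions, transcript lengths and GC content from GENCODE M21. Other pseudocounts (1 and 0.01), filters on low values (none, or a mean over 1 FPKM) and scalings were tried. Python 3.11.15, numpy 2.4.6, pandas 2.3.3 and matplotlib 3.10.9 were used.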

Additional observations from a re-analysis of the deposited data

How the results depend on the processing

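With pseudocounts of 1 and 0.01, with no filter and with a mean of at least 1 FPKM, the 17 summary values of the 42 genes (counts at 2-fold and 1.5-fold, counts of lower genes and medians) kept their direction, and no gene of the 42 changed sign in any of the 4 comparisons under these settings. Scaling mattered more, because summed FPKM differed between groups. With the groups rescaled to the same sum, the median of the 42 was 0.11 in Nfat5-KO_600 against Scr_600 and 0.015 in Nfat5-KO_600 against Nfat5-KO_300, both reversed in sign, -0.15 in Scr_600 against Scr_300 and 0.20 for the difference of responses. The number of lower genes was then 15 of 42 between the hypertonic groups and 20 of 42 in the Nfat5-KO response, beside 38.5% and 34.0% of all genes. All genes had medians of 0.11 and 0.20 in those comparisons. In each of them 1 gene of the 42 reached 1.5-fold. Single genes turned sign under this scaling, 12 of 42 in the Nfat5-KO response, 9 between the hypertonic groups, 4 in the Scr response and 2 between the isotonic groups, against 1, 4, 0 and 1 with median-of-ratios factors. Median-of-ratios factors also brought 1 gene to 1.5-fold in the Nfat5-KO response. The share of all genes at 1.5-fold was not taken under these scalings. Centring on genes whose mean reached 5 FPKM, an alternative added after the values were seen, gave a median of 0.022 between the hypertonic groups, again reversed, and -0.11 in the Nfat5-KO response. The median of the 42 minus that of all genes changed little with scaling, at -0.24 in the Scr response and between -0.19 and -0.18 in the Nfat5-KO response, and was -0.27 in the latter with no filter. No paired analysis was possible because the table holds 1 value per group, and for the same reason no replicate could be left out.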
